A study of Bos taurus with 18 samples.

Results

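Messenger RNA was counted in 18 pools of bovine blastocysts, and the 100 genes described here were chosen by their counts, as genes that were nearly or wholly uncounted in some pools and well counted in others. A gene met the rule with 0 or 1 count in at least 3 pools and 10 or more counts in at least 3 pools. Of 27270 genes in the table, 19430 had at least 1 count and 239 met the rule. The 100 with the highest CPM (the count scaled to the library total) in any pool were taken, after a block of 40 consecutive identifiers had been left out. Treatment played no part in the choice. Each gene's spread between pools is therefore built in and is a description, not a finding. The table lists Ensembl identifiers only, and 0 of 37063 rows of the RefSeq gene table at hand carried one. The members are thus named by identifier, their functions are not given, and the markers of blastocyst cells could not be looked up to check the label.

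A blastocyst holds an inner cell mass, from which the fetus forms, and a trophectoderm, which forms the fetal part of the placenta. The transcript level of a pool is an average over its embryos, which can differ in stage, sex and cell number. A transcript that is made in few cells, or by few embryos, gives few molecules to a library and is the first to go uncounted. In bulk libraries fewer cells of a type and less RNA per cell cannot be told apart, and neither can 1 rich embryo and 10 slightly richer ones.

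All embryos came from oocytes of follicles of 2 to 4 mm that underwent 22 h of IVM, and were collected at 8 dpi in pools of 10. miR-34c is a small RNA that lowers the level or translation of mRNAs it pairs with. During IVM the COCs received water (control, 4 pools), a double-stranded miR-34c mimic (5 pools), a non-targeting negative control for it (NC mimic, 3 pools), a single-stranded miR-34c inhibitor (3 pools) or its negative control (NC inhibitor, 3 pools). The label of the control reads untreated, and the water is given in the study's methods. Treatment was thus given to the oocyte with its cumulus cells, and mRNA was read in the embryo, days after the supplement had ended. Nothing in the labels says whether pools came from separate rounds of fertilization, so p-values measure the spread between these pools.

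The libraries held 2063863 to 4071640 counts. At these totals a count of 0 allows up to 3 counts, or 0.737 CPM in the deepest library and 1.45 CPM in the shallowest, so a low count is a limit of detection and not an absence. Such limits cover counting error only. Pools of a treatment were unlike in many genes. The first principal component of the 10995 tested genes that were not among the 100 held 50.2% of the variance. It was negative in control 1 (-36), miR-34c mimic 2 (-43.8), NC mimic 3 (-12.8), miR-34c inhibitor 1 (-67.8), miR-34c inhibitor 3 (-20.3) and the NC inhibitor pools (-43.6, -43 and -39.2). It was positive in the other 10 pools, from 4.6 to 50.5.

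The highest CPM of the 100 genes ranged from 6.24 to 64.4, with a median of 8. It reached 10 in 24 genes and 20 in 3. CPM is not corrected for gene length, so levels are compared here between pools and not between genes. The limit of the list fell among near-equal values. The genes ranked 99 and 100, ENSBTAG00000048581 and ENSBTAG00000045862, peaked at 6.29 and 6.24 CPM, and ENSBTAG00000009091 and ENSBTAG00000018040, just outside, at 6.24 and 6.23 CPM. Of the 100, 50 genes (50%) had an identifier numbered 45000 or above, against 84 of the 239 that met the rule (35.1%) and 715 of 3493 genes (20.5%) whose total count lay within the range of the 100, from 64 to 393.

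No member was purely on or off. Of the 1800 values (100 genes in 18 pools), 429 (23.8%) were 0 or 1, 544 (30.2%) were 10 or more and 827 (45.9%) lay between, at 2 to 9. Every one of the 100 genes had at least 3 pools at 2 to 9 counts, with a median of 8 pools, and 49 genes had 9 pools or more there. A Poisson distribution with a constant share of every library would have put 1270 values (70.6%) at 2 to 9, and a negative binomial 1180 (65.8%), but the rule itself leaves a member at most 12 of 18 pools there, so the lower number observed is built in. The number of values declined from 229 at a count of 1 to 169 at 2, 119 at 4 and 51 at 9, and no second peak near 10 stood out, with 57 values at 10 and 61 at 11. Pooled over genes of unlike totals, such a curve does not show the shape for any single gene. Since each of the 100 had middle counts, and a count of 0 is a limit of detection, the working description of them as on-off and absent is not used, and they are called genes with low and high counts.

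**Figure D1:**
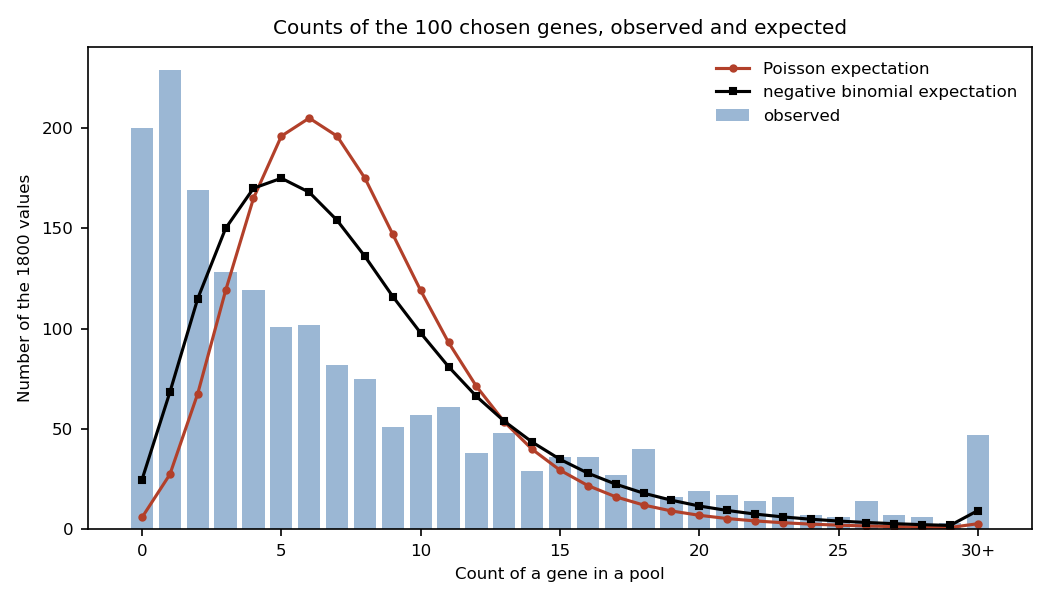
Number of the 1800 values (100 genes in 18 pools) at each count, with 30 and above in the last bar. Bars are observed values, and lines are the numbers expected if each gene held the same share of every library, under a Poisson or a negative binomial distribution. The observed bars are above both lines at 0 to 2, below them from 4 to 14 (51 values against 147 and 116 at 9) and above again from 15 (47 against 2.69 and 9.26 at 30 or more), with no gap between low and high counts.

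Counting error alone gave far fewer low values. The Poisson distribution put 33.1 of the 1800 values (1.84%) at 0 or 1 and 496 (27.6%) at 10 or more. With the additional spread that edgeR estimated for genes of like abundance (the trended dispersion of a negative binomial distribution), 93 values (5.17%) were expected at 0 or 1 and 522 (29%) at 10 or more. The median gene had 4 pools at 0 or 1 against 0.224 expected from Poisson and 0.82 from the negative binomial, and the median excess over Poisson was 3.44 pools (SD 1.57 over the 100 genes). All 100 genes lay above both expectations. For Poisson the rule fixed this in advance, since it asks for at least 3 low pools and the highest expectation of a gene was 2.65. For the negative binomial it did so in large part. The measures of spread that follow also describe genes chosen for their spread. The chi-square per degree of freedom against a constant share, which is about 1 under Poisson, ranged from 3.13 to 74.4 with a median of 6.4. Counts of 15 or more made up 311 values (17.3%), against 119 (6.63%) and 180 (10%) expected. The median chi-square was 2.28 over the 3493 genes of like total, so the typical gene of this abundance was also more variable than Poisson. The tagwise dispersion (the squared coefficient of variation beyond counting error) had a median of 0.54 over the 87 members that passed the low-count filter, against 0.156 for the trend at their abundance and 0.07 over all 11082 genes tested.

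A single pool made much of the spread in the most uneven genes. ENSBTAG00000049167, with the highest CPM and the largest chi-square per degree of freedom (74.4), had 16, 1, 0 and 1 counts in the control pools, 0, 86, 7, 4 and 2 with the miR-34c mimic, 20, 6 and 15 with the NC mimic, 145, 1 and 24 with the miR-34c inhibitor, and 14, 38 and 13 with the NC inhibitor. Pools 1 and 2 of the inhibitor group thus differed by more than the treatment means did, and the groups overlapped. ENSBTAG00000049498 (51.9) had 82 of its 165 counts, 49.7%, in miR-34c inhibitor 1, and 0 and 0 in the other pools of that group. ENSBTAG00000054894 (20.4) likewise had 39 counts there, 39.8% of its total, against 0 and 4 in miR-34c inhibitor 2 and 3. The other top genes peaked elsewhere. ENSBTAG00000047411 (22) had 53 counts in control 2 and 5, 9 and 1 in the other control pools, and ENSBTAG00000049871 (19.9) had 42 in control 3 and 12, 3 and 0 in the others. Both lay at 0 to 20 counts in every pool outside the control group.

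**Figure D2:**
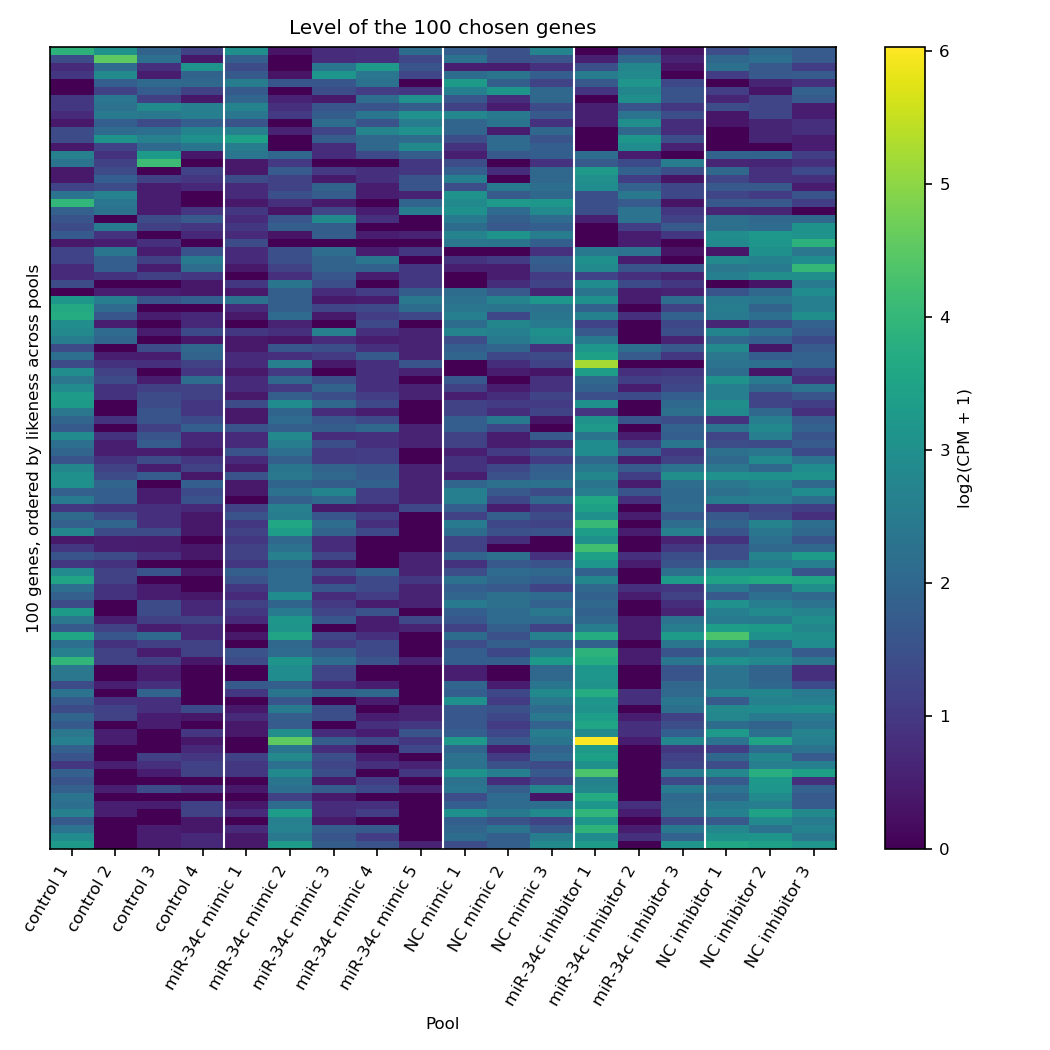
Level of the 100 genes (rows, ordered by their likeness across pools) in the 18 pools (columns, white lines between treatments) as log2(CPM + 1). Most rows are bright in the same pools, among them miR-34c inhibitor 1, miR-34c mimic 2, control 1 and the NC inhibitor pools, and a smaller band at the top shows the opposite.

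Presence, meaning 10 or more counts, was shared by a set of pools that cut across treatments. The number of the 100 genes present was 46, 11, 5 and 11 in control 1 to 4, and 9, 63, 9, 6 and 6 in miR-34c mimic 1 to 5. It was 22, 21 and 46 with the NC mimic, 60, 13 and 38 with the miR-34c inhibitor, and 64, 71 and 43 with the NC inhibitor. The 8 pools with 38 or more genes present were the 8 with a negative score on the component above, which was built without these genes. The number at 0 or 1 count mirrored this, from 5 in NC inhibitor 2 to 53 in miR-34c inhibitor 2 and 64 in miR-34c mimic 5. The group means were 18.2 ± 18.7 (SD, n = 4) for the control, 18.6 ± 24.9 (n = 5) for the mimic, 29.7 ± 14.2 (n = 3) for the NC mimic, 37 ± 23.5 (n = 3) for the inhibitor and 59.3 ± 14.6 (n = 3) for the NC inhibitor. In the control and mimic groups the SD exceeded the mean.

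Library depth moved with these numbers in part. The shallowest library, miR-34c mimic 5 with 2063863 counts, had 6 genes present, and miR-34c mimic 2 with 3900521 had 63. The next shallowest, miR-34c inhibitor 1 with 2250236 counts, had 60 present and held the highest CPM of 40 of the 100 genes. The rule took genes by their highest CPM, which favours genes that peak in such a pool, and with that pool left out of the rule 69 of the 100 genes taken were the same. The summed CPM of the 100, which is scaled to depth, was 667 in that pool, 347 in miR-34c mimic 2, 381 in control 1 and 373 to 410 in the NC inhibitor pools, against 106 to 282 in the other pools.

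**Figure D3:**
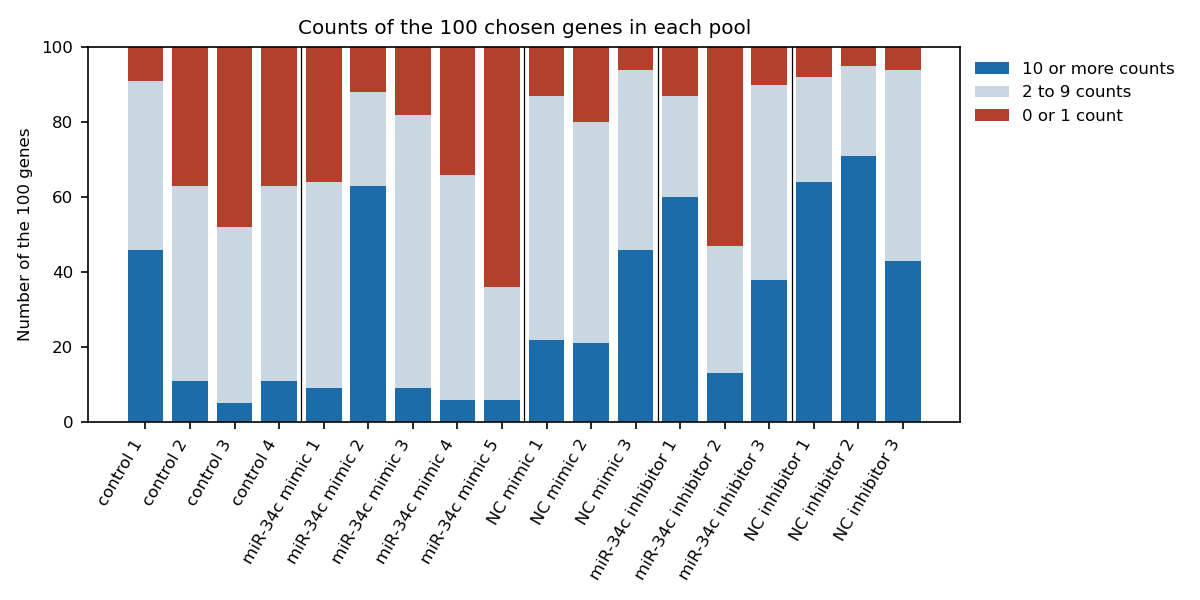
Number of the 100 genes at 10 or more counts, at 2 to 9 and at 0 or 1 in each pool, with lines between treatments. Genes present ranged from 5 to 46 among control pools, 6 to 63 among miR-34c mimic pools and 43 to 71 among NC inhibitor pools.

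Pools of a treatment disagreed over many of these genes, most of all with the miR-34c mimic and least with the NC inhibitor. A gene was split within a treatment when it had 10 or more counts in at least 1 pool and 0 or 1 in another. This held for 47 of 100 genes in the control, 73 with the miR-34c mimic, 8 with the NC mimic, 51 with the miR-34c inhibitor and 4 with the NC inhibitor. In all, 90 genes were split within at least 1 treatment and 68 within at least 2. Present in all pools of a treatment were 0 genes for the control, the mimic and the inhibitor, 7 for the NC mimic and 35 for the NC inhibitor. The groups of 4 and 5 pools had more chances of a split than those of 3. The rule gave every gene at least 3 pools of each kind by the same limits, so splits are in part built in. The number expected with presence unrelated to treatment was not computed. Within the inhibitor group, 35 genes were present in pool 1 and at 0 or 1 in pool 2, while 6 showed the reverse and 2 were present in both. Within the mimic group, 49 genes were present in pool 2 and at 0 or 1 in pool 5, 3 showed the reverse and 0 were present in both.

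The genes present in both of a pair of pools, as a fraction of those present in either, averaged 0.188 (SD 0.196, range 0 to 0.709) over 25 pairs of pools of 1 treatment. Over 128 pairs of different treatments the mean was 0.159 (SD 0.171, range 0 to 0.74). The difference of 0.0294 was small beside either SD, and it fell to -0.00303 without NC inhibitor 2 and rose to 0.0794 without miR-34c mimic 2. Without miR-34c inhibitor 1, control 1 and miR-34c mimic 2 together, a choice made after seeing the data, it was 0.128. Pairs share pools, so the SD is only a description. The treatments were unlike in this respect. The fraction rises with the number of genes present, so each mean is given with the value that unrelated presence at those numbers would give. Mean sharing was 0.593 among NC inhibitor pools (0.406 if unrelated), 0.284 among NC mimic pools (0.155), 0.156 for the inhibitor (0.177), 0.101 for the control (0.0619) and 0.0997 for the mimic (0.0514). Much of the order thus followed the numbers present. Over pairs of 1 treatment the mean was 0.0642 above the unrelated value, and over pairs of different treatments 0.023 above it. The closest pool belonged to the same treatment for 4 of 18 pools, NC inhibitor 1 and 3 and NC mimic 1 and 2. With 25 pairs of 1 treatment and 128 of different treatments, some such matches arise without any relation to treatment. The number expected was not computed.

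The pair that shared most was miR-34c mimic 2 with NC inhibitor 2, with 57 genes present in both of 77 present in either (0.74). It was followed by NC inhibitor 1 with 2, with 56 genes present in both (0.709), and miR-34c mimic 2 shared 46 of 77 with miR-34c inhibitor 1 (0.597). Control 1 shared most with NC inhibitor 1, with 37 of 73 genes (0.507). At the other end, miR-34c mimic 5 had 0 genes in common with any NC inhibitor pool and with miR-34c inhibitor 1 and 3, and shared most with miR-34c inhibitor 2 (5 of 14).

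**Figure D4:**
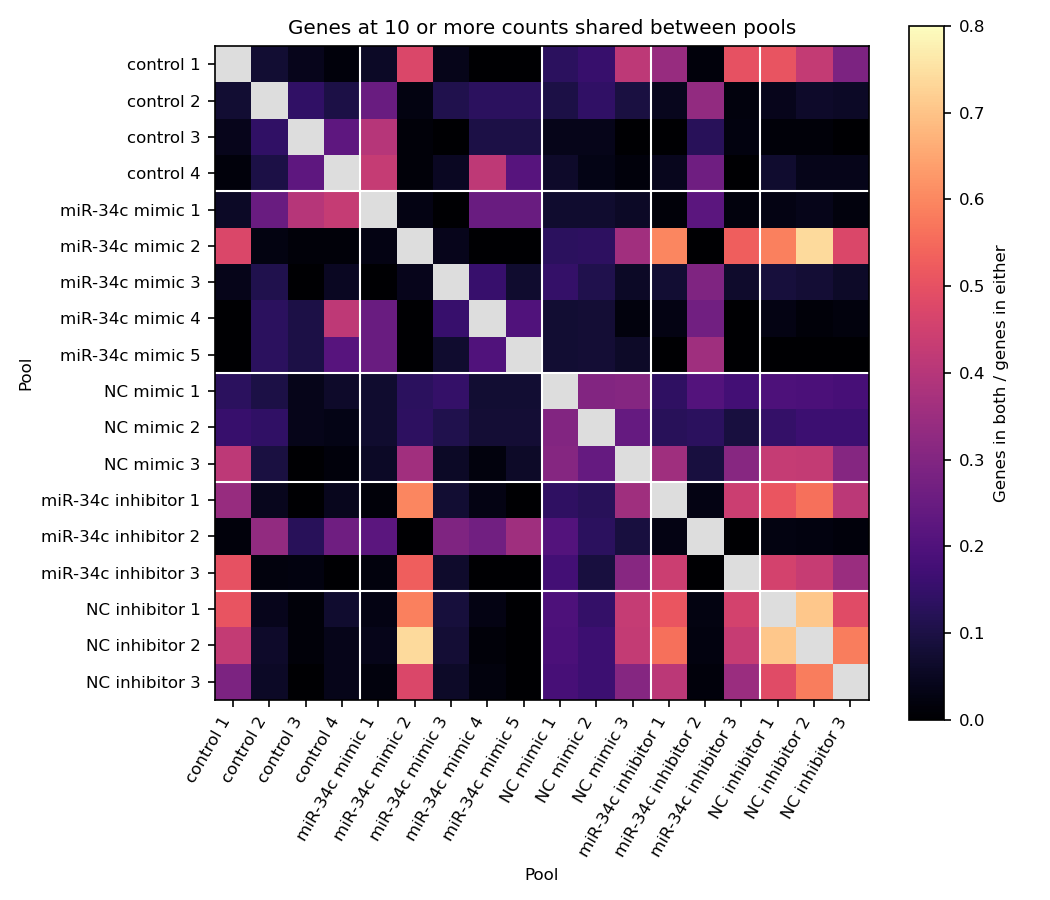
Genes at 10 or more counts in both pools divided by those in either, for each pair of the 18 pools, with white lines between treatments and the diagonal in grey. High values join control 1, miR-34c mimic 2, NC mimic 3, miR-34c inhibitor 1 and 3 and the NC inhibitor pools, and the highest is 0.74.

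Sets of genes were present in exactly the same pools. The 100 genes had 86 distinct patterns of presence, of which 8 were held by 2 or more genes, 22 genes in all. The largest set held 6 genes, among them ENSBTAG00000047206, ENSBTAG00000037699, ENSBTAG00000055269 and ENSBTAG00000051764, each present in the 8 pools named above for the negative component and in no other. ENSBTAG00000047206 had 33, 5, 8 and 2 counts in the control pools, 1, 41, 4, 2 and 0 with the mimic, 8, 5 and 19 with the NC mimic, 28, 1 and 37 with the inhibitor, and 68, 26 and 18 with the NC inhibitor. Another 3 genes, ENSBTAG00000049093, ENSBTAG00000048699 and ENSBTAG00000049773, were present in 6 of those 8 pools. A further 3, ENSBTAG00000054894, ENSBTAG00000049161 and ENSBTAG00000032198, were present in miR-34c mimic 2, miR-34c inhibitor 1 and NC inhibitor 2. ENSBTAG00000049167 shared its pattern of 9 pools with ENSBTAG00000054224, and ENSBTAG00000049498 its pattern of 4 pools with ENSBTAG00000004262. Of the 100 genes, 23 were present in miR-34c inhibitor 1, control 1 and miR-34c mimic 2 together, and 21 of these were present in no other control or mimic pool.

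ENSBTAG00000048699 and ENSBTAG00000049773 had the same count in every pool, 108 in total each. The counts were 13, 0, 1 and 0 in the control, 0, 26, 4, 0 and 0 with the mimic, 1, 0 and 11 with the NC mimic, 18, 0 and 8 with the inhibitor, and 14, 10 and 2 with the NC inhibitor. They are 1 of 7 such pairs among 14385 genes with at least 18 counts. With the same count in every pool, these 2 identifiers cannot be taken as separate measurements. Why their counts were the same was not tested. Both are still counted as members in the totals given here.

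A minority of the genes ran the other way. Of 4950 pairs of genes, 1914 had a Pearson correlation of log2(CPM + 1) over the 18 pools above 0.5, 428 had one below -0.5, and the median was 0.39. All pairs share libraries and their depth. ENSBTAG00000049281 had 5, 18, 13 and 23 counts in the control, 31, 0, 7, 8 and 7 with the mimic, 4, 9 and 7 with the NC mimic, 0, 21 and 7 with the inhibitor, and 0, 2 and 1 with the NC inhibitor. It was thus low in control 1, miR-34c mimic 2, miR-34c inhibitor 1 and the NC inhibitor pools, which were among the 8 pools with the most of the 100 genes present. Its correlation with ENSBTAG00000055269, of the largest set, was -0.91. ENSBTAG00000049228 was likewise high in control 2 to 4 (11, 11 and 16 counts) and low in control 1 (2 counts), miR-34c inhibitor 1 (1 count) and the NC inhibitor pools (1, 5 and 1), and its correlation with ENSBTAG00000012970 was -0.91. In miR-34c inhibitor 1, 13 of the 100 genes stood at 0 or 1, and 7 of these also did in miR-34c mimic 2.

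Whether presence followed treatment was tested gene by gene with an exact test (two-sided, over all assignments of the pools to treatments) in the 2391 genes of the table present in at least 3 pools and not present in at least 3. The design was too small for it to call a gene on its own. The smallest p it allows, with 9 pools present and complete separation, is 4.11e-05, which is 0.0984 after adjustment unless 2 or more genes reach it. At an adjusted p below 0.05 it called 0 genes (0%), which therefore says little. At an unadjusted p below 0.05 were 162 genes (6.78%), among them 15 of the 100, which had been chosen for wide differences between pools. The smallest exact p, 0.000162 (adjusted p = 0.386), was that of ENSBTAG00000001745, present in 3 of 3 NC mimic pools, 3 of 3 NC inhibitor pools and in 0 of the other 12, and no pattern over 6 pools could give a smaller p. The 15 became 2 with presence at 2 or more counts (4.95% of genes tested), 3 at 20 or more (5.23%) and 25 without miR-34c inhibitor 2 (10.8%). With presence set by depth-scaled level, at 3.56 CPM or more, they were 14 (8.12%).

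Levels were compared with edgeR's quasi-likelihood test over all 5 treatments at once, with p-values adjusted over 11082 genes. The low-count filter passed 87 of the 100 genes, and the other 13 were not tested. ENSBTAG00000007554 was the only one called, 1 of 87 against 2 of 11082 (0.018%) overall. The 100 had been chosen for wide differences between pools, and this gene had 10 or more counts in NC pools only. Its call thus reuses counts by which it was chosen. At an unadjusted p below 0.05 were 17 of 87, against 12.1% of all genes, and leaving out a pool moved both. The members numbered 38 of 99 without miR-34c inhibitor 2 (25.2% of all genes), 27 of 77 without miR-34c mimic 2 (24.8%), 11 of 88 without control 3 (9.11%) and 11 of 96 without NC inhibitor 3 (6.27%). ENSBTAG00000007554 had 1, 1, 2 and 0 counts in the control, 5, 0, 0, 0 and 0 with the mimic, 10, 11 and 9 with the NC mimic, 0, 1 and 0 with the inhibitor, and 23, 29 and 35 with the NC inhibitor (edgeR adjusted p = 0.0398). Both NC groups lay above every other pool and did not overlap each other. The mean was 9.36 ± 3.77 CPM with the NC inhibitor and 3.56 ± 0.953 CPM with the NC mimic (SD, n = 3 each), against 0.383 ± 0.326 CPM in the control (n = 4). Its 10 pools at 0 or 1 count were 3 of 4 control, 4 of 5 miR-34c mimic and 3 of 3 miR-34c inhibitor pools.

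The call of ENSBTAG00000007554 depended on the pools and the method. In edgeR its adjusted p ranged from 0.0092 to 0.398 when each pool was left out in turn, and it passed without control 1 (0.0384), miR-34c mimic 1 (0.0092) or miR-34c mimic 2 (0.0228) and missed without any other single pool. With no filter on low counts it was 0.00125 in edgeR, and with DESeq2 6.30e-10. It was also the only one of the 100 with 10 or more counts in all pools of a treatment and 0 or 1 in all pools of the treatment compared with it, the NC inhibitor and the inhibitor. Its summed counts of 87 and 1 there gave a ratio of 79.2 per count sequenced (95% exact counting interval 13.9 to 3170). That interval covers counting error only and not the spread between pools, and the gene was named for this very separation. The edgeR contrast alone, which takes in the spread between pools, had an adjusted p of 0.2.

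Next by p came ENSBTAG00000001745 (edgeR adjusted p = 0.139). Its counts were 7, 2, 0 and 2 in the control, 2, 1, 7, 1 and 1 with the mimic, 13, 21 and 18 with the NC mimic, 0, 1 and 4 with the inhibitor, and 24, 30 and 19 with the NC inhibitor. Here too both NC groups lay above every other pool. ENSBTAG00000039035 (adjusted p = 0.179) had 18, 25 and 18 counts with the NC inhibitor and 0 to 6 in each of the other 15 pools, the NC mimic included (0, 1 and 4). Neither gene passed the threshold with the filter and all pools in edgeR. ENSBTAG00000001745 did with no filter (adjusted p = 0.00854), with DESeq2 (2.21e-07) and in edgeR without control 1 (0.0384), miR-34c mimic 2 (0.0474) or miR-34c mimic 3 (0.0306). ENSBTAG00000039035 did with DESeq2 (0.000227). Outside the 100, ENSBTAG00000008389, ranked 111 and named because it was the only one of the 239 genes with no pool at 2 to 9, had 21, 18 and 11 counts with the NC inhibitor and 0 or 1 in every other pool.

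**Figure D5:**
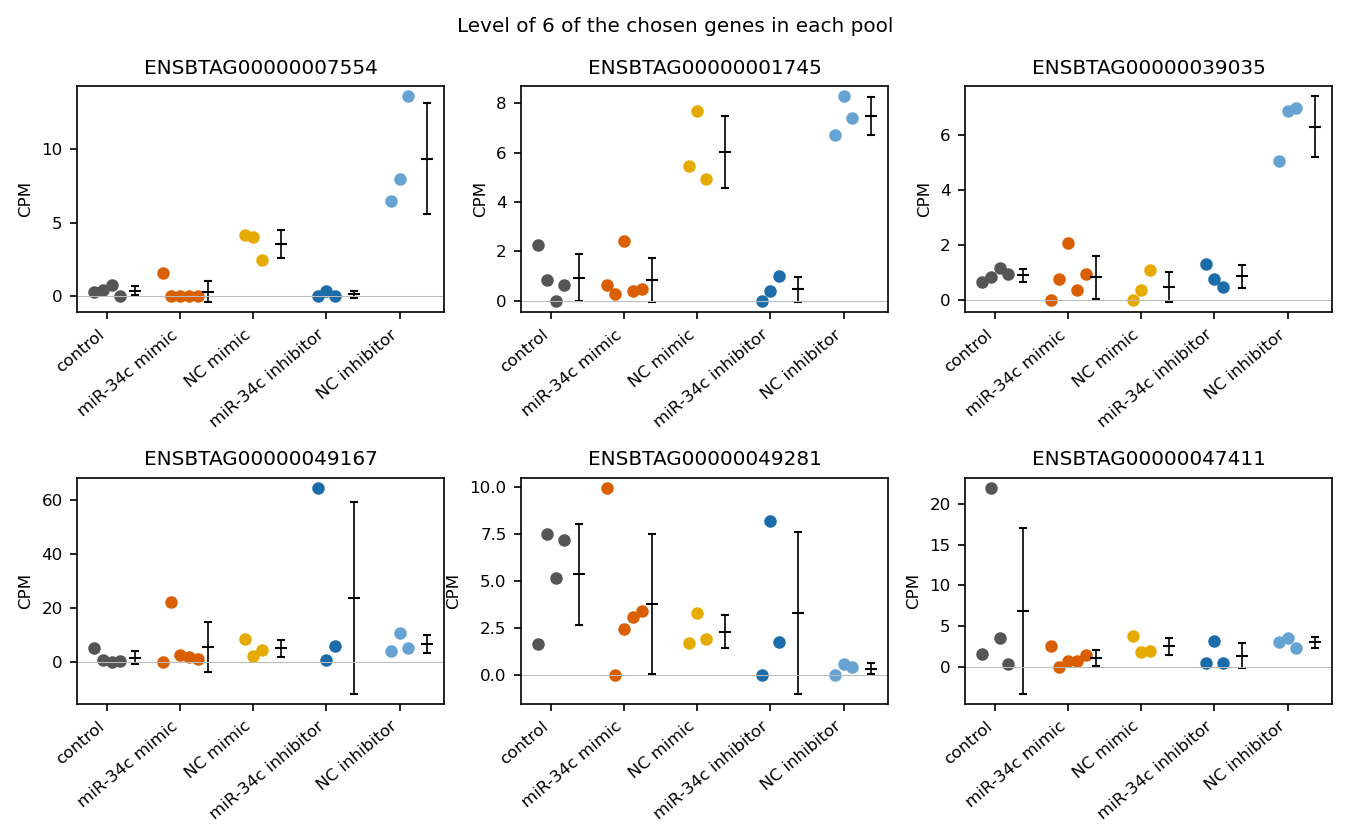
CPM of 6 of the 100 genes in each pool (points, by treatment), with the mean and SD of each treatment in black beside its points. In the top row the NC inhibitor pools, or both NC groups, lie above the others, while in the bottom row the spread within the control, miR-34c mimic or miR-34c inhibitor group is as wide as any difference between treatments.

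For the effect of the miR-34c mimic, edgeR called 0 of 87 genes against the NC mimic (0% of all genes called), with a smallest adjusted p of 0.302. At an unadjusted p below 0.05 were 10 of 87, all lower with the mimic, against 7.58% of all genes, and without miR-34c mimic 2 there were 22 of 77, against 14.7% of all genes. The median log2 fold change was -0.48 over the 87 and 0.01 over all genes tested. ENSBTAG00000001745 differed by -2.71 ± 0.62 (log2, SE) and ENSBTAG00000007554 by -3.13 ± 0.84. The latter value ran from -2.72 to -6.35 when each mimic or NC mimic pool was left out, the last without miR-34c mimic 1, the only mimic pool with counts of it, where the fitted fold is no bound. The former ran from -2.41 to -3.57, the last without miR-34c mimic 3. Against the control, ENSBTAG00000001745 differed by -0.18 ± 0.73 with the mimic and by 2.54 ± 0.65 with the NC mimic. ENSBTAG00000007554 differed by -0.06 ± 1.14 and 3.07 ± 0.9. The mimic pools thus lay near the control for both genes, and the NC mimic pools above it. For the inhibitor against the NC inhibitor 0 were called (0%), with 9 of 87 at an unadjusted p below 0.05 (4.06% of all genes), 4 higher and 5 lower, and the median was -0.27 against 0.03. There were 21 of 91 without miR-34c inhibitor 1 (16.7% of all genes) and 5 of 94 without NC inhibitor 1 (2.35%). ENSBTAG00000001745 differed by -3.58 ± 0.77 (adjusted p = 0.646), and by -4.77 without miR-34c inhibitor 3, and ENSBTAG00000049281 by 3.37 ± 1.4 in the other direction (adjusted p = 0.842).

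Against the control, the mimic gave 0 calls (0%) and 4 of 87 genes at an unadjusted p below 0.05 (1.44% of all genes), and the inhibitor 0 calls (0%) and 9 of 87 (6.75%). The 9 became 30 of 99 without miR-34c inhibitor 2 (24.2% of all genes), 25 of 74 without control 1 (15.9%), 15 of 98 without miR-34c inhibitor 3 (6.28%) and 6 of 91 without miR-34c inhibitor 1 (2.99%). The median log2 fold changes were -0.04 for the mimic and 0.64 for the inhibitor, against 0 over all genes in both. ENSBTAG00000049167 was 3.8 ± 1.3 higher (log2, SE) with the inhibitor than in the control (edgeR adjusted p = 0.72), a value that was 1.07 without miR-34c inhibitor 1, which held 145 of its counts, and 6.18 without control 1. The NC mimic gave 0 calls (0%) and 7 of 87 genes at an unadjusted p below 0.05 (8.05%), with a median of 0.35 against -0.01, and 18 of 74 without control 1 (13.2% of all genes). With no filter there were 20 of 100 for the inhibitor (5.34% of all genes) and 18 of 100 for the NC mimic (5.6%). All of these contrasts share the control pools.

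The NC inhibitor against the control gave the most low p-values, for the 100 as for the table at large. Called were 0 of 87 (0%), with a smallest adjusted p of 0.106. At an unadjusted p below 0.05 were 22 of 87, 15 of them higher with the NC inhibitor, against 26.7% of all genes, with no filter 35 of 100 (18.1%), and with only these groups in the fit 22 of 46 (32.4%). The 22 became 39 of 74 without control 1 (40.3%) and 14 of 88 without control 3 (20.4%), so whether the share among these genes was above that of the table depended on the setting. The median log2 fold change was 0.97 against 0.01. ENSBTAG00000007554 differed by 4.35 ± 0.83 and ENSBTAG00000039035 by 2.57 ± 0.62, while ENSBTAG00000049281 was lower, by -4.14 ± 1.29 (edgeR adjusted p = 0.106, 0.108 and 0.108). The count of 0 turned on control 1 and on the method. Without control 1 edgeR called 19 of 74 genes, and 14.2% of the whole table, and without any other control or NC inhibitor pool it called 0. With all pools DESeq2 called 8 of 87 (4.92% of the table), and edgeR fitted to these groups alone called 9 of 46 (5.57%). Control 1 was also the control pool with the most of the 100 genes present (46, against 5 to 11).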

How the data were processed

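Total RNA of each pool was made into libraries with a modified Smart-seq3xpress protocol, which reads the 5′ ends of mRNAs. For all 18 pools the authors deposited 1 table of estimated counts by Ensembl identifier. Their processing notes list FastQC 0.11.9, cutadapt 3.7, STAR 2.7.10a, UMI-tools 1.1.4, RSEM 1.3.3 and the build ARS-UCD1.2. Whether molecules or reads were counted is not given in the sources used here. The values were whole numbers and not normalized, and totals ranged from 2063863 to 4071640.

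CPM was the count scaled to the library total. Treatments and replicate numbers came from the sample labels, which name no batch. All 18 pools entered 1 fit in R 4.3.3 with edgeR 4.0.16 (TMM, filterByExpr, quasi-likelihood F test, treatment as the only term). The threshold for a call was an adjusted p (Benjamini-Hochberg) below 0.05 and, between a pair of treatments, a log2 fold change of 1 or more in either direction. Presence was tested with an exact test, adjusted over 2391 genes. Alternatives were median-of-ratios factors, no filter, DESeq2 1.42.0, a replicate block, only the 2 groups compared, other limits of presence and leaving out each pool of the treatments compared. The code was tested on simulated data. The 25 pairs of pools of 1 treatment all differed beyond counting error (chi-square per degree of freedom 2.31 to 61.3), and each pool counted as 1 replicate.

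The members, lists and tests were chosen with earlier results of these data known. Genes were named by fixed rules: the highest CPM, the largest chi-square per degree of freedom, the smallest p-values, complete separation of compared treatments, shared presence, the limit of the list and the largest share in 1 pool. A few that illustrate a pattern were named after their values were seen. Lists of marker genes by symbol (embryonic, cumulus, blood and other cell types) could not be matched to identifiers and were not analysed here.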

Additional observations from a re-analysis of the deposited data

Results flagged for a closer look

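In the control group (4 pools) and the miR-34c mimic group (5 pools), the gap between the most extreme pool and its neighbour was divided by the range of the group and compared with Dixon's critical value, 0.829 for 4 pools and 0.71 for 5. Of 34 combinations of a measure and a group, 13 stood apart, 3 of them through control 1 and 5 through miR-34c mimic 2, against about 1 in 20 by chance for values that were not selected. That rate does not hold here, since the genes were chosen for very low and high pools, and the measures share pools. The ratios are therefore descriptions. No explanation was tested.

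The number of the 100 genes at 10 or more counts set control 1 apart (ratio 0.854), with 46 against 5 to 11 in the other control pools, and miR-34c mimic 2 (0.947), with 63 against 6 to 9. The summed CPM of the 100 genes also set miR-34c mimic 2 apart (0.73), at 347 against 106 to 171. For ENSBTAG00000049167, control 1 stood apart at 5.2 CPM against 0 to 0.416 (0.92), and miR-34c mimic 2 at 22 CPM against 0 to 2.43 (0.89). In miR-34c mimic 2, ENSBTAG00000045783 stood at 6.41 CPM against 0 to 1.73 (0.729) and ENSBTAG00000047206 at 10.5 CPM against 0 to 1.39 (0.868).

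ENSBTAG00000047411 stood apart in control 2, at 22 CPM against 0.313 to 3.57 (0.85). In control 1, ENSBTAG00000054894 was at 0.975 CPM against 0.313 to 0.416 (0.844), a difference of 3 counts against 1 in each of the others. With the mimic, ENSBTAG00000007554 was at 1.61 CPM in pool 1 and at 0 in the other 4 pools (1), and ENSBTAG00000001745 at 2.43 CPM in pool 3 against 0.256 to 0.644 (0.822). In miR-34c mimic 5, ENSBTAG00000000502 was at 2.91 CPM against 0 to 0.769 (0.735) and ENSBTAG00000011458 at 4.85 CPM against 0.256 to 1.39 (0.754).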

How the results depend on the processing

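Of 147 other settings tried for the results that answer a comparison, 119 stayed within the tolerance (counts within 1.5 times, values with no test within 1 SD) and 28 did not. The number of the 100 genes called over all 5 treatments was 1 with edgeR, 2 with no filter (100 tested, 14 of 19430 genes in all), 3 with DESeq2 (97 of 11082 in all), 0 with the replicate block, and 0 to 2 when each pool was left out. For the mimic against the NC mimic DESeq2 called 1 (6 of 11082 in all). For the NC inhibitor against the control it was 0 with edgeR, 1 with no filter (5 of 19430 in all), 8 with DESeq2 (545 of 11082), 9 with only these groups in the fit (46 tested, 591 of 10611 in all) and 0 to 19 when each control or NC inhibitor pool was left out, 19 without control 1. With the replicate block the adjusted p of ENSBTAG00000007554 was 0.757. At an unadjusted p below 0.05 over all 5 treatments were 10 of 87 genes with that block (5.26% of all genes). With no filter there were 37 of 100 (10.6%). Pools with the same number did not deviate together (31 pairs, median correlation -0.02, 9 above 0.1), so the numbers were not taken to pair the pools. The rule was met by 239 genes, by 63 with absence at 0 counts, by 23 with presence at 20 or more, by 69 with at least 4 pools of each kind, and, added after seeing the data, by 184 without miR-34c inhibitor 1 and 120 without miR-34c inhibitor 1, control 1 and miR-34c mimic 2. Of the 100 genes then taken, 69 and 56 were among those described. The sharing of pools of 1 treatment minus that of different treatments changed sign within the SD over pairs, to -0.023 with presence at 2 or more counts and to -0.00303 and -0.000632 without NC inhibitor 2 or 3. The causes were not tested. With the negative binomial the excess of low pools was 2.91. With 0 counts as the limit it was 1.88 pools. Of the 453 other values, 0 reversed. Only the log2 fold changes among them could, not the counts or adjusted p-values, and these were of the genes with the smallest p in each contrast. Depth limits presence to about 2.46 CPM in the deepest library and 4.85 CPM in the shallowest, where 10 counts lie.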

Other observations

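ENSBTAG00000000502, known here only by its identifier, had 15, 23 and 30 counts with the NC mimic and 8, 8 and 3 with the NC inhibitor. In the control pools it had 46, 10, 1 and 0 counts, so that the control group held its highest value and also a count of 0. The lowest value with the miR-34c mimic was 0 as well. ENSBTAG00000054317 had 12, 21 and 11 counts with the NC mimic, 4, 1 and 7 with the NC inhibitor, and 15 in miR-34c inhibitor 2. In the exact test of presence by treatment their p-values were 0.00595 and 0.00621, and the adjusted p was 0.447 for both. ENSBTAG00000051015 was present in 3 of 3 NC mimic pools, 3 of 3 NC inhibitor pools and 1 of 5 miR-34c mimic pools (exact p = 0.00198, adjusted p = 0.447). Among the 10 genes with the highest CPM, ENSBTAG00000002550 peaked in miR-34c inhibitor 1 (35 counts) and had 44 counts in the deeper library of miR-34c mimic 2, while ENSBTAG00000001753 peaked in NC inhibitor 3 with 39 counts.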
